A study of Mus musculus with 6 samples.

Results

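The class IIa histone deacetylases Hdac4, Hdac5, Hdac7 and Hdac9 and the myocyte enhancer factors Mef2a, Mef2c and Mef2d were followed in a mouse cell line exposed to an ischemia-like insult with or without phillyrin. The 7 genes were taken by symbol from the 21959 genes of the deposited table, and all 7 were found. They were chosen by family with their values in these libraries already known, so their differences between the groups are given as a description. All cells carried the label HL-1, the name of a mouse atrial muscle line, with a wild type genotype and 1 shared batch label. In 3 libraries the cells were given phillyrin, a plant lignan from Forsythia, at 50 µg/mL for 8 h beforehand and then for 16 h together with oxygen-glucose deprivation and reoxygenation (OGD/R). The 3 other libraries came from cells given OGD/R alone, and the labels describe OGD/R for both groups as 4 h of hypoxia without glucose and 24 h of reoxygenation. No cells without OGD/R and no vehicle samples were analysed here, so the 7 genes are compared between groups that both underwent the insult, and phillyrin and its solvent cannot be told apart. Whether libraries of the same group are separate cultures is not stated in the labels, so any p-value reflects library-to-library spread that may be technical only.

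Class IIa histone deacetylases carry a long N-terminal region that binds MEF2 transcription factors and brings corepressors to MEF2 target genes. Kinases of the CaM kinase, protein kinase D and salt-inducible kinase families phosphorylate them, after which 14-3-3 proteins hold them in the cytoplasm and MEF2 is released. In heart muscle this switch is known for its place in stress-dependent gene expression and hypertrophic growth, and in skeletal muscle for the control of differentiation and of the response to denervation.

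RNA was selected on poly(A) and sequenced as paired reads of 150 bases, and library totals lay between 14761317 and 22123648 counts. A count of 0 allows up to 3 counts, or 0.136 to 0.203 CPM (counts scaled to a common library total) depending on the library, and this limit covers counting error only. Mitochondrially encoded genes took 3.49% to 4.27% of the counts in the phillyrin libraries, against 3.18% to 3.30% in the OGD/R libraries. The heart muscle label was poorly matched by its defining transcripts: 11 of 16 cardiomyocyte markers stayed below 0.5 CPM in every library, and Myh6, Myh7, Actn2 and Hand2 had no count. Their summed level was 183.9 to 199.2 CPM with phillyrin, against 153.8 to 156.3 CPM in OGD/R, and most of it was Tnnt2. The other cardiomyocyte markers tested were Gata4, at 27.6 to 32.6 CPM over all libraries, and Nppb, Nkx2-5 and Myl4, each at most 4.38 CPM. Of 10 skeletal myoblast markers 8 were tested, with Myod1, Myf5, Des, Cdh15 and Chrna1 above 50 CPM in every library and Pax7 and Mymk at lower levels, at most 3.39 and 1.57 CPM. Pax3 and Myog, with 2 and 45 counts over all libraries, were not tested. The list summed to 1276 to 1338 CPM with phillyrin, against 1345 to 1365 CPM in OGD/R, most of it Des and Chrna1. Its genes did not all go 1 way. Myod1 was higher with phillyrin, Myf5, Cdh15, Chrna1 and Mymk were lower, and the groups overlapped for Des and Pax7. The 8 fibroblast markers summed to 1797 to 1950 CPM with phillyrin and 2281 to 2322 CPM in OGD/R. Nearly all of it was the collagen genes Col3a1, Col1a2 and Col1a1, and Lum and Tcf21 were at 0. The 5 smooth muscle markers summed to 612.9 to 666.1 CPM with phillyrin and 441.7 to 465.7 CPM in OGD/R, nearly all of it Acta2 and Smtn. The 5 endothelial and the 5 macrophage markers summed to at most 1.35 and 4.24 CPM in any library, and Kdr, Tie1, Adgre1 and Itgam were at 0. The endothelial and macrophage sums overlapped between the groups. The cardiomyocyte, skeletal myoblast, fibroblast and smooth muscle sums did not overlap, and their part in the values of the 7 genes was not tested. In such bulk libraries fewer cells of a type and less RNA per cell cannot be told apart.

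The 4 class IIa deacetylases did not move as a block: Hdac9 and Hdac4 were higher with phillyrin, and Hdac5 and Hdac7 were lower. Among the MEF2 factors Mef2d was lower, while the libraries of the groups overlapped for Mef2a and Mef2c. In edgeR's quasi-likelihood test over the 11658 genes tested, 5 of the 7 genes passed an adjusted p of 0.05, 2 of them higher and 3 lower. The same threshold was passed by 31.7% of all genes tested, 16.0% higher and 15.6% lower. In numbers these were 1871 higher and 1823 lower genes, and 1313 higher and 2455 lower with library size as the only scaling, under which the same 5 genes passed in the same directions. The libraries of the groups did not overlap for 5 of the 7 genes, which also held for 43.1% of all genes tested. Since these values were known when the genes were chosen, nothing is read from either count. Fold changes below are on the log2 scale, phillyrin minus OGD/R, with the standard error (SE) of the fit, and CPM values use library sizes scaled by trimmed mean of M-values (TMM).

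**Figure D1:**
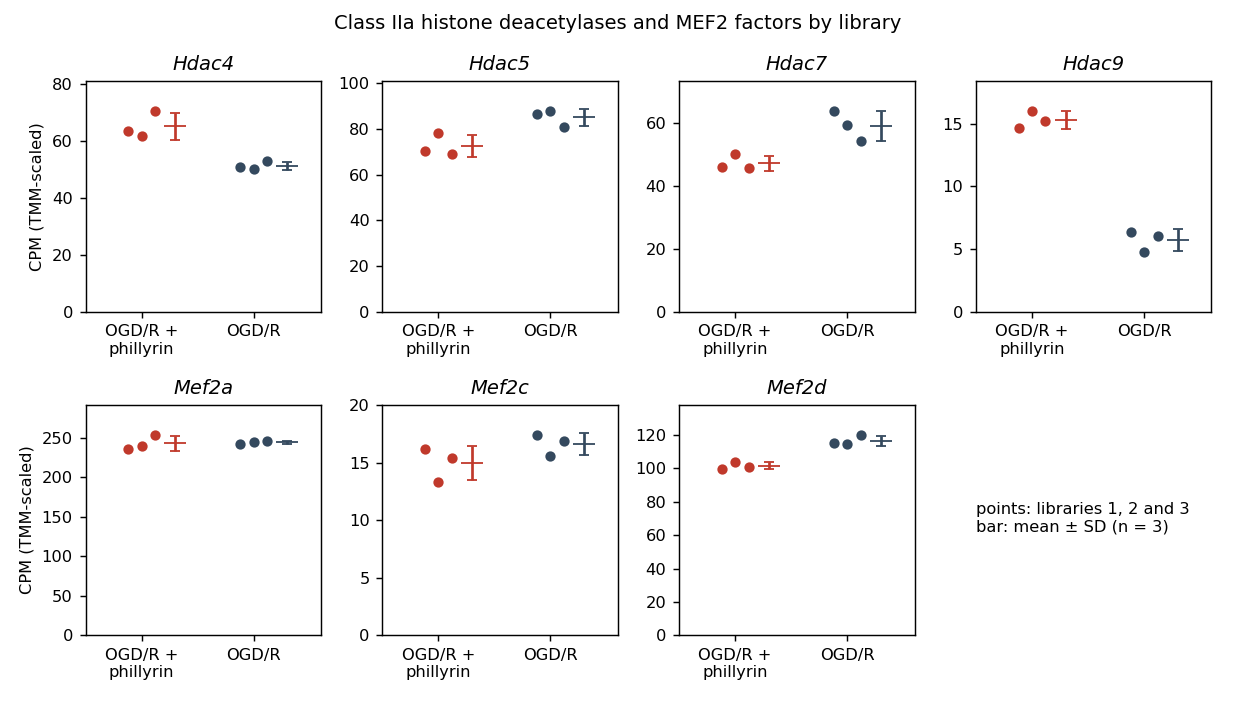
Level of each of the 7 genes in CPM in the 3 libraries of OGD/R with phillyrin (red, left) and the 3 of OGD/R (dark blue, right), with the mean and SD beside the points and axes that start at 0. Hdac9 sat between 14.6 and 16.0 CPM with phillyrin, above the 4.73 to 6.38 CPM of OGD/R, while the groups overlapped for Mef2a and Mef2c.

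Hdac9 (ENSMUSG00000004698, chr12:34097579-34967094, minus strand) encodes a class IIa deacetylase that is also made as a short form without the catalytic domain, MITR, which still represses MEF2. It had 14.6, 16.0 and 15.2 CPM in the phillyrin libraries, against 6.38, 4.73 and 6.0 CPM in the OGD/R libraries. All 3 phillyrin libraries lay well above all 3 OGD/R libraries. The underlying counts were 250, 350 and 219 with phillyrin and 118, 98 and 114 in OGD/R. The means were 15.3 ± 0.685 and 5.70 ± 0.865 CPM (SD, n = 3 each). The log2 fold change was 1.43 (SE 0.12), or 2.69-fold. Of all genes tested, 13 including Hdac9 had an increase at least this large, and 37 a change at least this large in either direction. The median size of the log2 fold change over all genes tested was 0.138. The table counts reads per gene, so the full-length form and MITR were not separated.

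RefSeq gives Hdac9 a pair of starts in the mouse build GRCm38.p6, and both windows are shown because Hdac9 differed most between the groups. Each window runs from 250 bases before the start to 50 after it, at chr12:34917046-34917345 and chr12:34528840-34529139 on the minus strand. Capitals mark the E-box CAGCTG, a site for muscle basic helix-loop-helix factors, in both windows and the AP-1 site TGANTCA in the second.
Hdac9 first start: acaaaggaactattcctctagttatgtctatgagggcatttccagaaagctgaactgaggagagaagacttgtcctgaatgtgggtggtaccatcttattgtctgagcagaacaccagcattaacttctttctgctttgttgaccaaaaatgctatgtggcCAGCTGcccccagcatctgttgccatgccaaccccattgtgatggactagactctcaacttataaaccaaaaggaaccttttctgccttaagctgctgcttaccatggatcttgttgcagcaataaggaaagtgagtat
Hdac9 second start: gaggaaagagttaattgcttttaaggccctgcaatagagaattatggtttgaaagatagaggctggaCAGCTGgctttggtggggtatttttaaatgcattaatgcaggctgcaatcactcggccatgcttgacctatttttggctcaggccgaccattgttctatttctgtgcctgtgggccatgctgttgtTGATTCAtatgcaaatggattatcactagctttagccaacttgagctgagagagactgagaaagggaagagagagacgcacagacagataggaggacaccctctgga
The first window had 44% G and C and no CpG, and the second 45.3% with 3 CpG, against a median of 52.7% G and C over 32851 RefSeq windows of the same length. CAGCTG was in 16.3% of those windows on either strand, and TGANTCA in 7.81%. Which start gave the reads cannot be read from counts per gene. The bases just after the start were found in a GENCODE transcript of Hdac9 for the first window but not for the second.

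Hdac4 (ENSMUSG00000026313, chr1:91856501-92123421, minus strand), a deacetylase that binds MEF2 and is a substrate of CaM kinase II, had 63.6, 61.7 and 70.6 CPM with phillyrin, against 50.8, 50.1 and 53.1 CPM in OGD/R. Every phillyrin library was above every OGD/R library, and phillyrin replicate 3 was the highest. The means were 65.3 ± 4.69 and 51.3 ± 1.55 CPM (SD, n = 3 each). The log2 fold change was 0.34 (SE 0.06).

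Hdac5 (ENSMUSG00000008855, chr11:102085258-102120992, minus strand), known in the mouse heart as a brake on stress-induced growth, had 70.3, 78.1 and 69.2 CPM with phillyrin, against 86.4, 87.8 and 81.0 CPM in OGD/R. The phillyrin libraries were all lower, and the nearest values of the groups were phillyrin replicate 2 and OGD/R replicate 3. The means were 72.5 ± 4.86 and 85.1 ± 3.60 CPM (SD, n = 3 each), and the log2 fold change was -0.23 (SE 0.05). Hdac7 (ENSMUSG00000022475, chr15:97690545-97742383, minus strand), best known from mouse work in endothelium and thymocytes, had 46.1, 49.9 and 45.6 CPM with phillyrin, against 63.7, 59.1 and 54.3 CPM in OGD/R. The phillyrin libraries again all lay below the OGD/R libraries, which were themselves spread more widely. Hdac7 averaged 47.2 ± 2.39 CPM with phillyrin and 59.1 ± 4.69 CPM in OGD/R (SD, n = 3 each), and its log2 fold change was -0.32 (SE 0.06).

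The MEF2 factors share a DNA-binding MADS box at their N-terminus, and their first 120 coding bases are shown to let the reader see how far reads could tell the genes apart. Capitals mark the 35 positions at which the 3 genes are not all alike, taken from transcripts of build GRCm38. Of these positions 26 are the third base of a codon.
Mef2a: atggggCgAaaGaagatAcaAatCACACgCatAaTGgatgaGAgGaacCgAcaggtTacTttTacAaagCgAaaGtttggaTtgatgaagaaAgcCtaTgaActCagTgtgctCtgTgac
Mef2c: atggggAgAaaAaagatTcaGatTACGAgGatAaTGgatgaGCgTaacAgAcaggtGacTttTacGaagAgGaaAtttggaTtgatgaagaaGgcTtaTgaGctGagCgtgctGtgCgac
Mef2d: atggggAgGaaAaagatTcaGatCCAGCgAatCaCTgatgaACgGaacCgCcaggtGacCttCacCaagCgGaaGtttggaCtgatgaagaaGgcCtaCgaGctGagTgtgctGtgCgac
The longest run of identical bases between transcripts of any pair of MEF2 genes was 28 bases, for Mef2c and Mef2d. Between class IIa genes it was 36 bases, for Hdac5 and Hdac7. Both are far shorter than the reads, and how reads that align to several places were counted is not given in the sources used here.

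Mef2d (ENSMUSG00000001419, chr3:88049679-88079393, plus strand), a factor whose overexpression in the mouse heart is known to drive remodelling, had 99.7, 104 and 101 CPM with phillyrin, against 115, 114 and 120 CPM in OGD/R. All phillyrin libraries were lower than all OGD/R libraries, and each group was tight. The means were 101 ± 2.09 and 116 ± 3.01 CPM (SD, n = 3 each), and the log2 fold change was -0.20 (SE 0.04). Mef2a (ENSMUSG00000030557, chr7:66880911-67022606, minus strand), whose loss in mice impairs cardiac mitochondria, had 236, 239 and 254 CPM with phillyrin, against 242, 244 and 246 CPM in OGD/R. The phillyrin libraries lay on both sides of the OGD/R libraries. Its log2 fold change was -0.01 (SE 0.04). Mef2c (ENSMUSG00000005583, chr13:83652153-83815199, plus strand), required for heart development in the mouse, had 16.1, 13.3 and 15.4 CPM with phillyrin, against 17.4, 15.6 and 16.9 CPM in OGD/R. The groups overlapped, phillyrin replicate 1 being above OGD/R replicate 2. Its log2 fold change was -0.16 (SE 0.10). Without phillyrin replicate 2 it was -0.07, and without phillyrin replicate 1, where the groups did not overlap, it was -0.21.

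Promoter windows were available from RefSeq for all 7 genes, 13 windows in all. The MEF2 consensus site was in 3.19% of all 32851 windows, and among the 13 it was found in the windows of Hdac5 and Mef2a. These are shown because class IIa deacetylases act through MEF2 at such sites, and capitals mark the MEF2 match and, in Hdac5, also the GC box CCGCCC (the reverse complement of GGGCGG) and the E-box CACGTG. The windows lie at chr11:102230123-102230422 and chr7:67372809-67373108 of GRCm38.p6, both on the minus strand.
Hdac5 start: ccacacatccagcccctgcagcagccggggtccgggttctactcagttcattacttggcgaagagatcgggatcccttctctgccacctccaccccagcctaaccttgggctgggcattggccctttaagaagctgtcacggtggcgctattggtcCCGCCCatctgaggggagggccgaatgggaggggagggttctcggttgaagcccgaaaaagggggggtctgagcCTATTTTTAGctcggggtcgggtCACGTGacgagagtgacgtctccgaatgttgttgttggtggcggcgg
Mef2a start: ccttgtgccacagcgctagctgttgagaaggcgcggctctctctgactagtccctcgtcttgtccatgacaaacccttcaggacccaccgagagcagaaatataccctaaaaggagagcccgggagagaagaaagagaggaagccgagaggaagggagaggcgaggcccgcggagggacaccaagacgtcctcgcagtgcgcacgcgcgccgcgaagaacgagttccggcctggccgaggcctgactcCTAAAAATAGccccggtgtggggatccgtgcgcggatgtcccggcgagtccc
In Hdac5 the MEF2 match CTATTTTTAG begins 20 bases before the start and in Mef2a the match CTAAAAATAG begins 2 bases before it, each spelled as printed. The bases just after the start were found in a GENCODE transcript of the gene for Mef2a but not for Hdac5. The GC box GGGCGG, in 35.7% of all windows, was found 5 times in the window of Hdac4, 2 times in that of Mef2d, and in 1 of the 4 windows of Hdac7 and 1 of the 3 of Mef2c. The cyclic AMP response element TGACGTCA, in 1.79% of all windows, was in none of the 13. The antioxidant response element core TGACNNNGC, in 12.4% of all windows, was in 1 Hdac7 window. Among the windows not printed here, CAGCTG and TGANTCA were in 1 Hdac7 window, and TGANTCA was in 1 Mef2c window. Both strands were searched for each motif, and some matches overlap. A match describes letters in a window and nothing more.

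Levels between genes were compared per length, in FPKM, fragments per length and library total. With phillyrin the order of mean levels was Mef2d at 16.7 FPKM, Mef2a at 16.3, Hdac5 at 8.13, Hdac7 at 6.88, Hdac4 at 4.06, Hdac9 at 1.01 and Mef2c at 0.937 FPKM. In OGD/R the order of mean levels was Mef2d at 19.8 FPKM, Mef2a at 16.9, Hdac5 at 9.83, Hdac7 at 8.87, Hdac4 at 3.29, Mef2c at 1.07 and Hdac9 at 0.39 FPKM. Hdac9 and Mef2c thus stood in opposite order in the groups. With phillyrin the ranges over libraries overlapped for Mef2d and Mef2a and for Hdac9 and Mef2c, so these neighbours did not differ beyond their spread. In OGD/R the ranges overlapped for Hdac5 and Hdac7, although within each OGD/R library Hdac5 was above Hdac7. Mef2b, the fourth MEF2 gene, had 9 counts over all 6 libraries. For scale, the class I deacetylase Hdac2 averaged 42.0 FPKM with phillyrin and 43.4 FPKM in OGD/R, above all 7 genes.

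**Figure D2:**
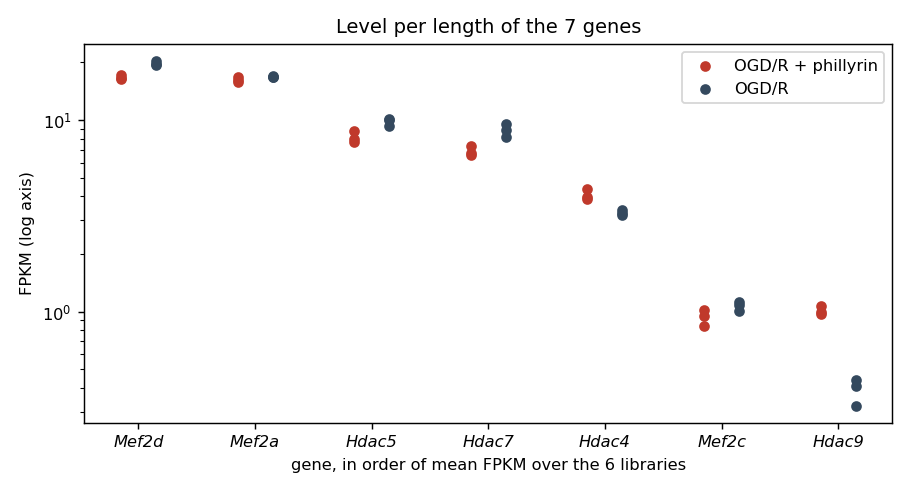
Level per length in FPKM on a log axis for the 7 genes, ordered by the mean over the 6 libraries, with 1 point per library for OGD/R with phillyrin (red, left) and OGD/R (dark blue, right). Mef2d and Mef2a led at 16.7 and 16.3 FPKM with phillyrin and at 19.8 and 16.9 FPKM in OGD/R, and Hdac9 was lowest in OGD/R at 0.39 FPKM.

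The make-up of each family was taken as each gene's share of the family's summed FPKM, a ratio within a library that does not depend on library scaling. Hdac9 made up 4.97%, 5.07% and 5.10% of class IIa transcripts in the phillyrin libraries, against 1.88%, 1.43% and 1.92% in the OGD/R libraries. The groups were far apart, and the mean shares were 5.05% ± 0.0714 with phillyrin and 1.74% ± 0.271 in OGD/R (SD, n = 3 each). Hdac4 made up 20.3% ± 1.93 with phillyrin and 14.7% ± 1.06 in OGD/R (SD, n = 3 each). Hdac5 made up 40.5% ± 1.335 with phillyrin and 43.9% ± 1.01 in OGD/R, and remained the most abundant member in every library. Hdac7 made up 34.2% ± 0.630 with phillyrin and 39.6% ± 1.47 in OGD/R. The summed level of the 4 genes was 19.65, 21.04 and 19.59 FPKM with phillyrin, against 23.3, 22.6 and 21.3 FPKM in OGD/R, and the groups did not overlap. With TMM-scaled totals, chosen after seeing the data, the sums per length were 19.84, 21.27 and 20.11 with phillyrin, against 22.92, 22.24 and 21.02 in OGD/R, and the groups overlapped. The means of these sums were 20.4 with phillyrin and 22.1 in OGD/R. The summed CPM of the 4 genes, not divided by length, was 200.3 ± 5.51 with phillyrin and 201.1 ± 6.50 in OGD/R (SD, n = 3 each). That last sum gives more weight to the long genes Hdac4 and Hdac9, which were higher. A lower level of the family as a whole was therefore not shown under every measure. Within a library the FPKM ratio of Hdac9 to Hdac7 was 0.148 ± 0.00416 with phillyrin and 0.0441 ± 0.00707 in OGD/R (SD, n = 3 each).

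Among the MEF2 factors, Mef2d made up 49.2% ± 1.17 of the summed FPKM with phillyrin and 52.4% ± 0.469 in OGD/R (SD, n = 3 each), and Mef2a 48.0% ± 1.07 with phillyrin and 44.8% ± 0.512 in OGD/R. Mef2c made up 2.77% ± 0.292 with phillyrin and 2.85% ± 0.155 in OGD/R, a difference within the spread. The summed MEF2 level was 33.9 ± 0.406 FPKM with phillyrin and 37.7 ± 0.581 FPKM in OGD/R, and the libraries of the groups did not overlap, also with TMM-scaled totals. The FPKM ratio of Mef2a to Mef2d was 0.963, 0.941 and 1.03 with phillyrin, against 0.859, 0.871 and 0.837 in OGD/R, so Mef2a exceeded Mef2d per length in phillyrin replicate 3 alone.

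**Figure D3:**
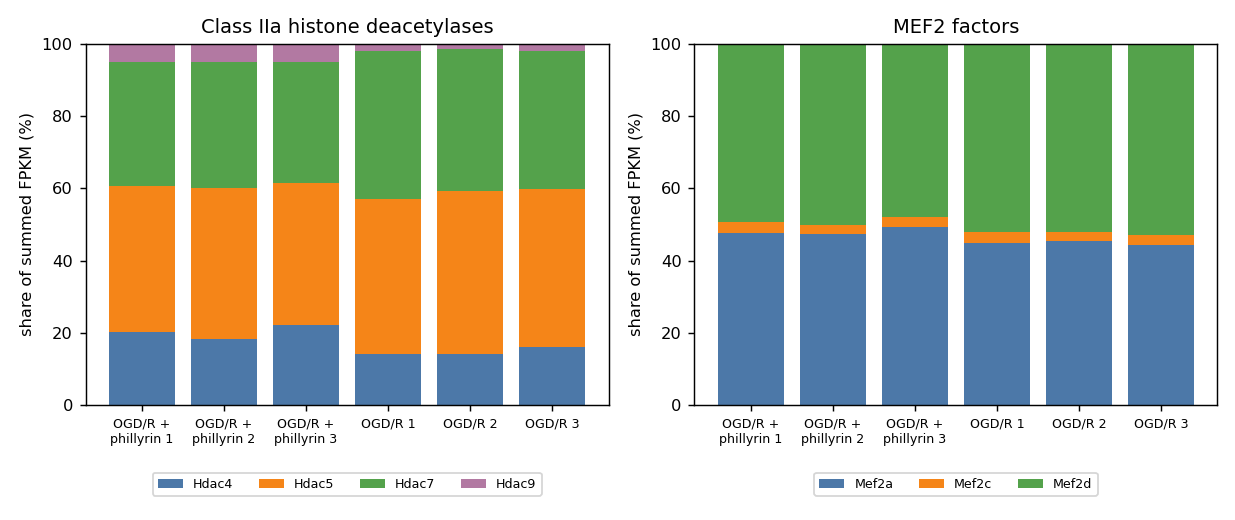
Share of each gene in the summed FPKM of its family, in percent, for the class IIa histone deacetylases (left panel) and the MEF2 factors (right panel), 1 stacked bar per library with phillyrin libraries left of OGD/R libraries. The Hdac9 share averaged 5.05% with phillyrin and 1.74% in OGD/R, and Mef2c stayed at or below 3.04% in all 6 libraries.

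The other classical deacetylases and the partners of the 7 genes were read from lists, which were drawn up with earlier results of these data known. Beside the counts below, 16.0% of all genes tested passed as higher and 15.6% as lower. Of the 7 class I, IIb and IV deacetylases, 2 rose and 1 fell. Their median log2 fold change was -0.08, beside -0.01 over all genes tested. Hdac8, a class I enzyme, rose to 15.9 ± 0.641 CPM with phillyrin, against 10.5 ± 0.565 CPM in OGD/R (SD, n = 3 each). Its log2 fold change was 0.60 with an adjusted p of 2.3e-05 in edgeR. Hdac6, the cytoplasmic tubulin deacetylase, fell by 0.26 on the log2 scale with an adjusted p of 0.00111 in edgeR. Hdac11, the class IV enzyme, had 2.23 ± 0.290 CPM with phillyrin and 1.245 ± 0.432 CPM in OGD/R, a log2 fold change of 0.84 with an adjusted p of 0.0249 in edgeR. That adjusted p was 0.160 with OGD/R replicate 1 left out and 0.121 with phillyrin replicate 2 left out. Hdac3, the partner that class IIa proteins engage through NCoR complexes, had a log2 fold change of -0.11 and did not pass.

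Of the 7 sirtuins, the NAD-dependent deacetylases, 3 fell and the 4 others did not pass, and the median log2 fold change was -0.07. Sirt7, the nucleolar member, fell to 19.3 ± 0.972 CPM with phillyrin, against 26.7 ± 0.505 CPM in OGD/R (SD, n = 3 each). Its log2 fold change was -0.46 with an adjusted p of 2.49e-05 in edgeR. Sirt1 and Sirt6 had log2 fold changes of -0.19 and -0.25. The adjusted p of Sirt1 was 0.0805 when OGD/R replicate 2 was omitted and 0.0602 when phillyrin replicate 2 was. That of Sirt6 was 0.267 without OGD/R replicate 2, 0.0818 without phillyrin replicate 1, 0.170 without phillyrin replicate 2 and 0.0938 in DESeq2, so only Sirt7 of the 3 held without either replicate 2.

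Transcripts of kinases, 14-3-3 proteins and phosphatases that can act on the place of class IIa deacetylases in the cell were read next. The activity, phosphorylation and location of the proteins were not measured here. Of 21 kinases, 18 were tested, 1 rose and 5 fell, and the median log2 fold change was 0.01. Camk2g and Camk2d, subunits of the CaM kinase that acts on Hdac4, fell by 0.18 and 0.16 on the log2 scale with adjusted p of 0.000347 and 0.00183 in edgeR. Sik3, a salt-inducible kinase, fell by 0.20 with an adjusted p of 0.00409, and Prkd2, a protein kinase D, fell by 0.43 with an adjusted p of 0.00602. Camk1d and Camk1g, further CaM kinases, had log2 fold changes of 0.19 and -1.44. Camk1d lost its call without OGD/R replicate 1 or phillyrin replicate 1, where its adjusted p was 0.122 and 0.0719, and with library size as the only scaling, at 0.0856. Camk1g, with 56 counts over all libraries, kept its call in 1 of the 6 fits that left out a library, the one without phillyrin replicate 2, its adjusted p lying between 0.0554 and 0.184 without any other library, and lost it at 0.0705 with no filter on low counts. DESeq2 gave Camk1g no adjusted p, and a mean of at least 1 CPM left it untested. Camk4 had 2 counts over all 6 libraries.

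All 7 genes for 14-3-3 proteins were tested. Of these 3 rose and 4 did not pass, and the median log2 fold change was 0.08. Ywhag rose to 858 ± 30.9 CPM with phillyrin, against 667 ± 4.86 CPM in OGD/R (SD, n = 3 each). Its log2 fold change was 0.36 with an adjusted p of 4.65e-11 in edgeR. Ywhab rose by 0.20 with an adjusted p of 1.73e-05. Ywhaz had a log2 fold change of 0.11 with an adjusted p of 0.0155, which was 0.0673 and 0.107 on leaving out replicates 1 and 2 of OGD/R, 0.0710 without phillyrin replicate 3 and 0.138 with library size as the only scaling. Of 12 genes for calcineurin, its regulators and subunits of protein phosphatase 2A, 5 rose and 1 fell, around a median log2 fold change of 0.08. Calcineurin and protein phosphatase 2A are phosphatases that can return the deacetylases to the nucleus. The calcineurin subunits Ppp3cb, Ppp3ca and Ppp3r1 rose by 0.25, 0.17 and 0.17 on the log2 scale, with adjusted p of 1.2e-05, 0.00102 and 0.000981 in edgeR. Rcan3 and Rcan2, of a family of calcineurin regulators, went opposite ways, with log2 fold changes of -0.39 and 0.43 and adjusted p of 0.00119 and 0.00681. Ppp2r2a, a regulatory subunit of protein phosphatase 2A, had a log2 fold change of 0.14, and leaving out OGD/R replicate 3 or scaling by library size alone raised its adjusted p to 0.0566 or 0.0567. Of 11 corepressor genes, with a median log2 fold change of 0.02, 1 rose and 1 fell: Ncor1, a nuclear receptor corepressor, had a log2 fold change of 0.18 with an adjusted p of 0.000288, and Tbl1xr1, a subunit of its complex, one of -0.14 with an adjusted p of 0.0298. The call of Tbl1xr1 was lost in DESeq2 and in 4 of the 6 fits that left out a library (replicates 2 and 3 of OGD/R, 1 and 2 of phillyrin), at adjusted p between 0.0566 and 0.137.

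**Figure D4:**
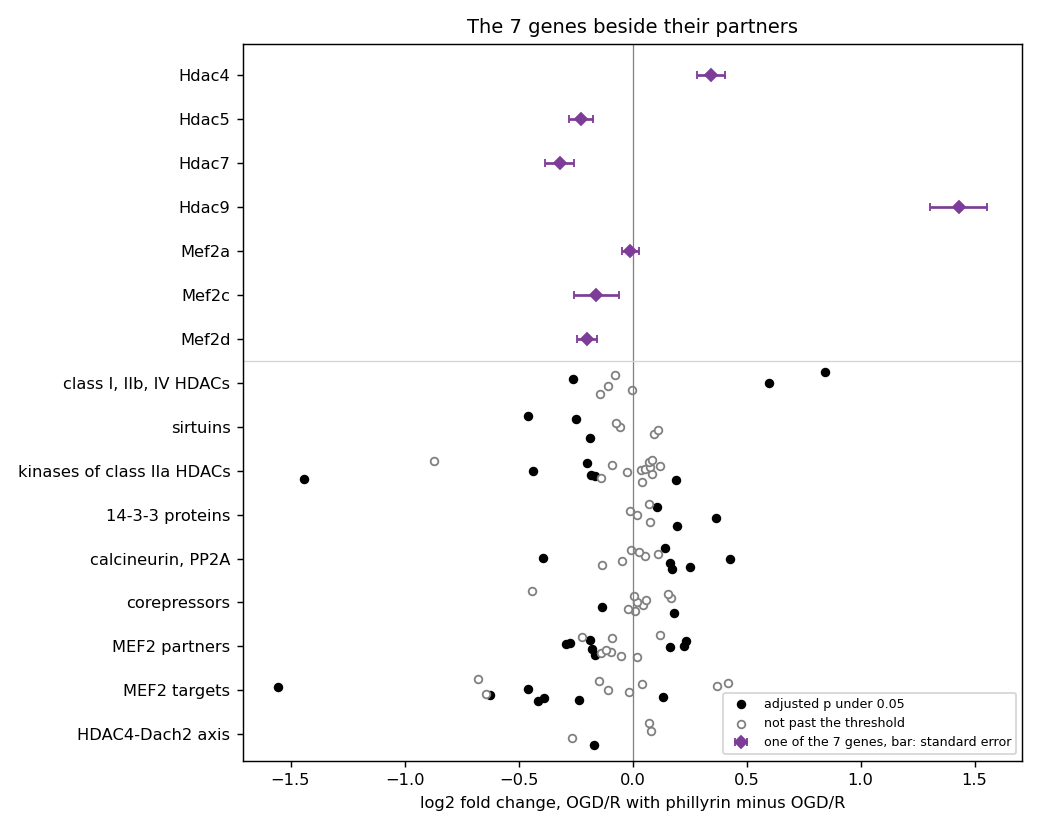
Log2 fold change, OGD/R with phillyrin minus OGD/R, for the 7 genes (diamonds with their standard error) and for the tested genes of 9 lists (circles, filled where the adjusted p in edgeR was under 0.05). Hdac9 stood at 1.43 and Hdac7 at -0.32. Of 7 genes for 14-3-3 proteins 3 were filled to the right of 0, and of 15 MEF2 targets 1 to its right and 6 to its left. Other lists were mixed, such as the corepressors with 1 on each side. Over all genes tested, 16.0% passed as higher and 15.6% as lower.

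Of 19 partners and regulators of MEF2, 16 were tested, 3 rose and 5 fell, and the median log2 fold change was -0.11. The muscle determination factors Myod1 and Myf5, which bind DNA beside MEF2, went opposite ways. Myod1 rose to 97.2 ± 4.09 CPM with phillyrin, against 83.2 ± 2.18 CPM in OGD/R (SD, n = 3 each), with an adjusted p of 0.000455 in edgeR. Myf5 fell to 52.5 ± 2.76 CPM with phillyrin, against 64.2 ± 3.65 CPM in OGD/R (SD, n = 3 each), with an adjusted p of 0.000197. Their E-protein partners also differed, with log2 fold changes of 0.16 for Tcf12 and -0.18 for Tcf3 and adjusted p of 0.000554 and 0.00139. Map2k5 and the kinase it activates, Mapk7, had log2 fold changes of 0.24 and -0.27, Mapk14 (p38 alpha) one of -0.19, and the acetyltransferase Kat2b one of -0.16. Each of these 4 calls was lost without at least 1 library: Map2k5 without OGD/R replicate 3 at an adjusted p of 0.111 (0.0517 with library size as the only scaling), Mapk7 without phillyrin replicate 3 at 0.0534 and Mapk14 without phillyrin replicate 1 at 0.0520. Kat2b lost its call without any library other than phillyrin replicate 3, at adjusted p between 0.0831 and 0.178, and likewise in DESeq2, with RLE scaling, with no filter on low counts and with a replicate block, at 0.0561 to 0.0960. Myog, the myogenic factor of differentiation, had 45 counts over all libraries and was not tested.

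The MEF2 target list held 26 genes, of which 25 were in the table and 15 were tested. Of these 15, 1 rose and 6 fell. Their median log2 fold change was -0.23, beside -0.01 over all genes tested. Klf2, a transcription factor reached through Mapk7 and MEF2 in endothelium, fell to 30.1 ± 1.48 CPM with phillyrin, against 39.5 ± 2.03 CPM in OGD/R (SD, n = 3 each), with an adjusted p of 3.9e-05 in edgeR. Jun, a subunit of AP-1, fell by 0.23 on the log2 scale with an adjusted p of 7.45e-05. Xirp1, an actin-binding protein of muscle, fell by 0.63 with an adjusted p of 0.000663. Mymk, the membrane protein of myoblast fusion, fell by 1.55 with an adjusted p of 0.00393, from 105 counts over all libraries, and was not tested with a mean of at least 1 CPM. Nr4a1, an orphan nuclear receptor, and Stac3, a protein of excitation-contraction coupling, had log2 fold changes of -0.41 and -0.46. The call of Nr4a1 was lost without OGD/R replicate 1 at an adjusted p of 0.0711, and that of Stac3 without phillyrin replicate 2 at 0.0906 and without OGD/R replicate 3. Klf4, a transcription factor related to Klf2, rose by 0.14 with an adjusted p of 0.00549, which was 0.0543 with library size as the only scaling. Des, the intermediate filament protein desmin, had the highest level per length of the list, 182 FPKM with phillyrin and 183 FPKM in OGD/R, and its log2 fold change of 0.04 did not pass. The differentiated muscle targets Ckm, Mb and Myh6 had no count in any library.

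The genes of the HDAC4, Dach2 and myogenin response to denervation gave 4 tested of 7. Chrna1, the alpha subunit of the muscle acetylcholine receptor, fell to 271 ± 11.04 CPM with phillyrin, against 305 ± 5.39 CPM in OGD/R (SD, n = 3 each), with an adjusted p of 0.000479 in edgeR. Musk, Chrng and Fbxo32 did not pass. Dach2, the repressor through which Hdac4 acts there, had 4 counts over all libraries, and Trim63 had none.

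Of the 14 nearest tested genes to the left and right of the 7, 4 passed the threshold, beside 31.7% of all genes tested. Nothing is read from that count. G6pc3, 351 bases from Hdac5, had a log2 fold change of -0.30 with an adjusted p of 0.00173 in edgeR. Hrob on the other side of Hdac5 had 0.34, Vdr beside Hdac7 had 0.39, and Iqgap3 beside Mef2d had 0.31, each opposite in sign to the gene it neighbours. The nearest tested genes of Hdac9, Polr1f at 606188 bases and Snx13 at 130091 bases, had log2 fold changes of 0.10 and 0.06 and did not pass. A pair of genes overlapped members on the other strand in the table's coordinates. Slc48a1 shared 29 bases with the end of Hdac7 and had a log2 fold change of 0.28 with an adjusted p of 1.39e-05, opposite to Hdac7. Lysmd4 shared 76168 bases with Mef2a between gene start and gene end, introns included. The length behind the FPKM of Lysmd4 was 5121 bases, and how much of the overlap lies in exons was not measured. Lysmd4 had 7.18 ± 0.875 CPM with phillyrin and 7.81 ± 0.789 CPM in OGD/R (SD, n = 3 each). The strand setting of the counting is not given in the sources used here, so reads in the shared bases cannot be told apart.

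Hdac9 was the one member with a log2 fold change over 0.5 in size, and the genes most like it were sought among 10564 tested genes by the Euclidean distance of log2 CPM, centred over the 6 libraries. The nearest was Mcam, a cell adhesion molecule, at a distance of 0.266, with 6.44, 6.35 and 7.03 CPM in the phillyrin libraries, against 2.49, 1.69 and 2.32 CPM in the OGD/R libraries. Mcam had its lowest value in OGD/R replicate 2, as Hdac9 did. Next came Fibcd1 at 0.445, Postn, the matrix protein periostin, at 0.476, Apoe, a lipid carrier protein, at 0.489 and Car6, a secreted carbonic anhydrase, at 0.490. Their log2 fold changes lay between 1.19 and 1.70. These genes were picked for their likeness in these libraries, and the distances are a description.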

How the data were processed

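The read count and FPKM columns per gene and library were deposited by the authors in 1 table, per the file headers, with coordinates read as GRCm39. The submitters' processing notes name featureCounts 2.0.3, DESeq2 1.34.0, Trimmomatic 0.39 and HISAT2 2.2.1, without their roles. The FPKM values deposited by the authors equalled count over length and library total to within a relative difference of 2.43e-07. Columns were assigned by sample title, since the description label names the same column for all 3 phillyrin samples. Which phillyrin library is replicate 1, 2 or 3 therefore rests on the titles alone. No libraries were identical, and replicates differed by more than counting noise (chi-square per degree of freedom 2.04 to 5.32).

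Genes were filtered by group, scaled by TMM and put through the quasi-likelihood test of edgeR (edgeR 4.0.16, limma 3.58.1, R 4.3.3), robust, two-sided, adjusted by Benjamini-Hochberg over 11658 genes. A prior count of 2 was added for log2 CPM. The 51 rows without a symbol took at most 0.00743% of a library. The test was also run on simulated counts with independent libraries and far fewer changed genes than were called here, so nothing is read from that run. Alternatives were limma-voom, DESeq2 1.42.0, scaling by RLE or by library size only, a mean of at least 1 CPM or no filter on low counts, each library left out and a replicate block.

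The 7 genes and all lists were chosen with earlier results of these data known. Named were the 7, up to 4 list genes with the smallest p past the threshold, tested neighbours and the 5 genes nearest to Hdac9. Further called list genes, genes with few counts, marker genes and Hdac2, Hdac3 and Des were named after their values were seen. Promoters came from RefSeq (GRCm38.p6) and transcripts from GENCODE (GRCm38), with no coordinates carried between builds. The value of 1 marker gene is not reported here.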

Additional observations from a re-analysis of the deposited data

How the results depend on the processing

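Under 13 alternatives, Hdac4, Hdac5, Hdac7, Hdac9 and Mef2d kept their sign and stayed past the threshold in each, and Mef2a and Mef2c passed in none. The log2 fold change of Hdac9 lay between 1.31 and 1.52 and that of Hdac4 between 0.29 and 0.39, while Mef2a reached 0.02 without phillyrin replicate 1. With library size as the only scaling, Mef2a was -0.054 and Mef2d -0.243, 5 of the other deacetylases were called (2 higher, 3 lower) and 7 of the 14 neighbours. That scaling shifted the median of all genes to -0.06 and called 1313 genes higher and 2455 lower, against 1871 and 1823 with TMM factors. DESeq2 called 1 corepressor, and leaving out 1 library gave 1 to 2 corepressors and 1 to 3 sirtuins. The count of sirtuins was 1 without OGD/R replicate 2 or phillyrin replicate 2. With the replicate number as a block, 3709 genes were called (1867 higher, 1842 lower) against 3694 without it, and the same 5 of the 7 genes. Libraries of equal number deviated together by correlations of 0.00278, 0.00561 and 0.00322, so the numbers are not shown to pair them. Of 264 alternative values 253 stayed within the limits set for each, the family sums aside. For counts the limits were wide: 2901 genes called without OGD/R replicate 2, against 3694, lay within them. For a log2 fold change the limit was the SD between replicates. Of the family sums given next, that of MEF2 moved beyond its limit. With TMM-scaled totals, chosen after seeing the data, the summed level with phillyrin minus that in OGD/R was -1.65 FPKM for class IIa (-2.30 by library total) and -2.74 FPKM for MEF2 (-3.83). The causes of the differences were not tested. With 330 counts in OGD/R, Hdac9 was the member measured least precisely.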
